A study of Mus musculus with 15 samples.

Results

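Bergmann glia are the radial astrocytes of the cerebellar cortex. Their somata sit among the Purkinje cells (PCs) in the PC layer, and their fibres wrap PC dendrites and synapses, guide migrating granule neurons and clear glutamate. RNA of these cells can therefore be taken up with a PC that is cut from a section. The genes described here are 10 markers of Bergmann glia and other astrocytes, *Slc1a3*, *Slc1a2*, *Gdf10*, *Hopx*, *Aqp4*, *Gfap*, *Fabp7*, *Aldh1l1*, *Gja1* and *Sox9*. They were chosen by their symbols, with earlier results of these data known. Each symbol matched exactly 1 of the 38561 Ensembl identifiers in the count tables. All 10 had counts in every sample and passed the filter on low counts, as did 14293 genes in all.

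The 15 samples are laser-captured PCs of male mice aged 0 (P0), 4, 8, 14 or 21 postnatal days. Each age has 3 biological replicates, and neither a treatment nor a genetic change is given for any of them. The strain is written C56/BL6 in the labels and C57/BL6 in the study's methods. For P4 to P21, 1000 PC somata were cut per sample, whereas clusters of PCs were taken at P0 because single cells were hard to isolate. Age and mode of capture therefore cannot be told apart at P0. Total counts on genes lay between 3409371 and 7814951 per sample. Counts were scaled to CPM, with the library size corrected by TMM factors. Unless another tool is named, tests of single genes were edgeR quasi-likelihood tests across all genes with Benjamini-Hochberg adjusted p-values. The ratio of *Slc1a2* to *Slc1a3* was tested by permutation, without adjustment. In such captured samples, fewer glial cells and less RNA per glial cell cannot be told apart.

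The labelled cell type was present at every age. Summed over *Pcp2*, *Pcp4*, *Calb1*, *Car8*, *Itpr1* and *Ppp1r17*, which mark PCs, the level was 5340.4 ± 737 CPM (SD, n = 3) at P0 and 42941 ± 5287 at P21. The 10 glial genes together had 4932 ± 819 CPM at P0 and 7481 ± 1970.4 at P4, reached 9461 ± 973 at P8, and came down to 6882 ± 222 at P14 and 4229 ± 909 at P21. Divided by the PC sum of the same library, this was 93.8% ± 20.9 for P0, 58.6% ± 18.8 for P4, 49.6% ± 7.66 for P8, 20.3% ± 1.76 for P14 and 10.1% ± 3.53 for P21. The glial sum was thus highest at P8 in CPM, while its percentage of the PC sum was lower in the mean at each later age. The PC sum itself rose in the mean at each later age, so a lower percentage need not mean a lower glial level. From P0 to P8 the percentage fell while the glial sum rose. Of the other cell types, markers of dividing cells (*Mki67*, *Top2a*, *Ccnb1*, *Cdk1*) fell from 405 ± 16.9 CPM at P0 to 1.28 ± 1.14 at P21. All 4 passed the test for a falling trend with day, against 14.1% of all genes tested. The sums of 5 oligodendrocyte progenitor markers, 3 vascular markers and 4 microglial markers were at most 78.1 ± 48.9 CPM at any age. Oligodendrocyte markers (*Mbp*, *Mog*, *Mag*, *Mobp*, *Cnp*) went from 22.4 ± 11.8 CPM at P0 to 569 ± 241 at P21. Of these, 5 of 5 had a rising trend, against 12.1% of all genes tested. Granule neuron markers (*Gabra6*, *Cbln1*, *Cbln3*, *Neurod1*) went from 279 ± 61.4 CPM at P0 to 675 ± 362 at P14 and 395 ± 135 at P21. Here 2 of 4 had a rising trend, against the same 12.1%. These marker lists were written with earlier results of these data known. The part of these cells in the results on the glial genes was not tested.

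The 10 genes did not follow a common course. On the mean CPM, *Aqp4*, *Gfap*, *Fabp7*, *Aldh1l1* and *Sox9* were highest at P8, *Slc1a3*, *Gdf10*, *Hopx* and *Gja1* at P14, and *Slc1a2* at P21. With the time point as a factor, 9 of the 10 changed at an adjusted p below 0.05, against 19.3% of all genes tested, and *Sox9* did not pass (adjusted p = 0.217, edgeR). With the day as a number, *Slc1a3*, *Slc1a2*, *Hopx* and *Gja1*, 4 of 10, had a rising trend, against 12.1% of all genes. *Fabp7* and *Aldh1l1*, 2 of 10, had a falling trend, against 14.1% of all genes. On log2(day + 1) in place of the day, neither passed (adjusted p = 0.220 for *Fabp7* and 0.180 for *Aldh1l1*, edgeR). The median slope over the 10 genes was 0.025 log2 units per day, and over all genes it was -0.0077. A slope misses genes that rise and fall again, so *Aqp4* (slope 0.012, adjusted p = 0.907, edgeR) and *Gfap* (slope 0.0083, adjusted p = 0.967, edgeR) had no trend although both changed over the time points.

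**Figure D1:**
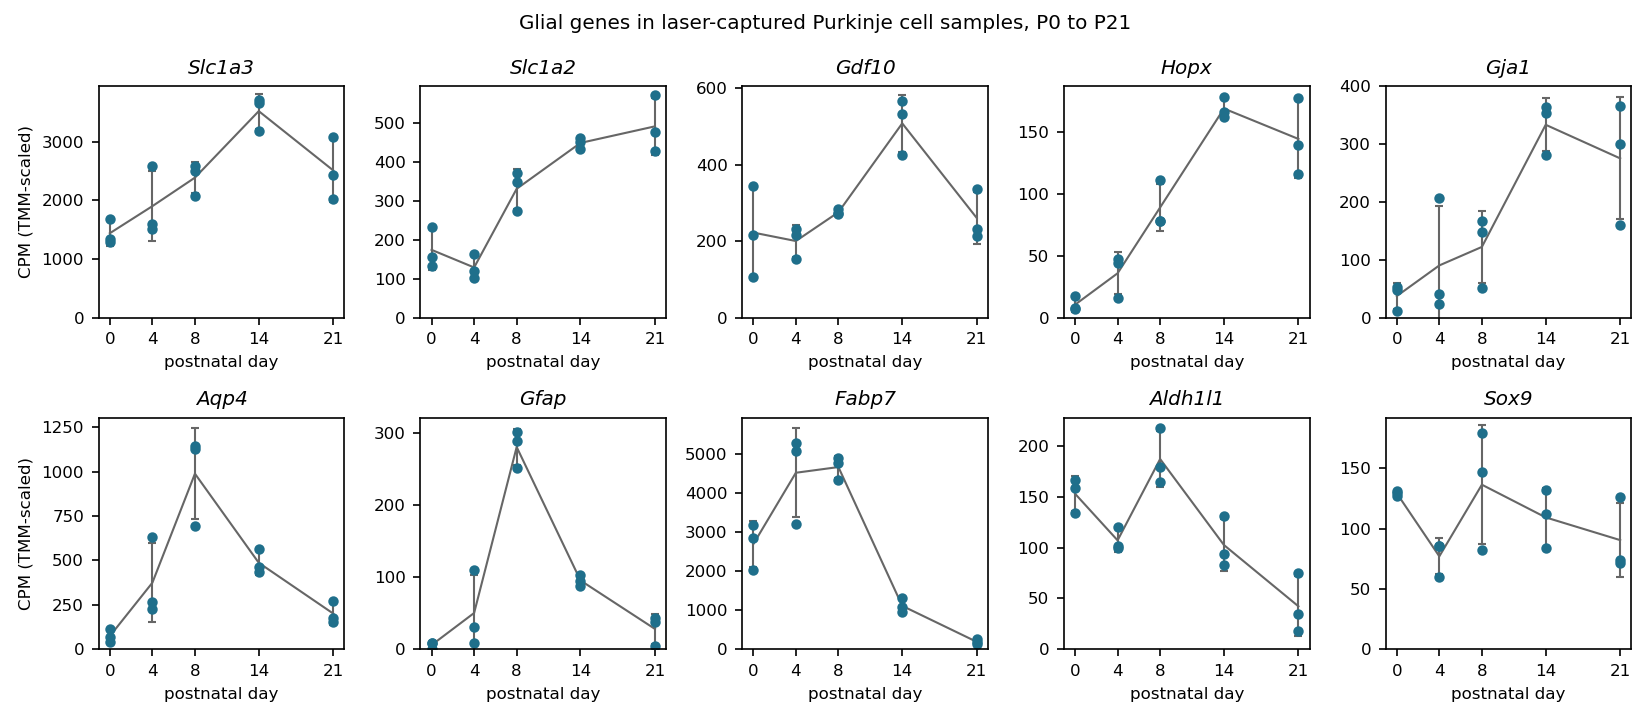
Level of each of the 10 glial genes in CPM (y axis, linear from 0) against postnatal day (x axis), with 1 point per sample, the line through the means and bars of 1 SD (n = 3), cut off at 0 where they would pass below it. *Slc1a3* to *Gja1* in the upper row are highest at P14 or P21, and the 5 genes of the lower row are highest at P8, where the 3 *Gfap* samples lie between 252 and 301 CPM.

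*Fabp7* encodes the brain fatty acid binding protein, which is typical of radial glia and of young Bergmann glia. It was the most abundant of the 10 per length from P0 to P14, with a mean of 2400.5 ± 525 RPKM (CPM on total counts, divided by kilobases of exon, SD, n = 3) at P0 and 3871 ± 274 at P8. The gene lies on chromosome 10 of GRCm38 (57784881 to 57788450, plus strand). In CPM, the 3 samples held 2840.1, 2032 and 3189 at P0, 5267, 5075 and 3206 at P4, and 4759.6, 4334 and 4893 at P8. They then held 1300.4, 940.6 and 1079.8 at P14 and 179.6, 125 and 253 at P21. All samples of P14 lay below all of P8, and all of P21 below all of P14. The fall was -2.07 on the log2 scale from P8 to P14 (standard error, SE, 0.25, adjusted p = 4.85e-04, edgeR) and -2.57 from P14 to P21 (SE 0.26, adjusted p = 1.46e-04, edgeR). The mean at P8 was 25.1 times that at P21. By edgeR and DESeq2, *Fabp7* alone of the 10 fell in each of these steps, in which 1.38% and 0.266% of all genes fell by edgeR. By limma-voom, *Aqp4* and *Gfap* also fell from P8 to P14, which made 3, and 1 of the 10 fell from P14 to P21. None of the 10 rose in them by edgeR (3 and 0 did at an unadjusted p below 0.05, 0 and 0 by DESeq2, 1 and 0 by limma-voom), while 1.29% and 0.063% of all genes did.

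*Slc1a3* encodes GLAST, the main glutamate transporter of Bergmann glia. It lies on the minus strand of chromosome 15 (8634124 to 8710764) and was the most abundant of the 10 per length at P21, with 258 ± 60.7 RPKM (SD, n = 3). Its values were 1336, 1292 and 1689 CPM at P0, 2591, 1602 and 1511 at P4, 2501, 2082 and 2581 at P8, 3179, 3668 and 3721 at P14, and 2433, 2019 and 3081 at P21. The P14 samples were above every sample of P8 and P21. Over all days its slope was 0.046 (log2 per day, SE 0.013, adjusted p = 0.0144, edgeR). None of its 4 steps between neighbouring time points passed the test. Without the P0 samples the slope was 0.031 and did not pass (adjusted p = 0.225, edgeR).

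*Fabp7* and *Slc1a3* together made up most of the glial sum at every age, and their parts changed places. *Fabp7* held 54.2% ± 5.33 (SD, n = 3) of the sum at P0 and 60.5% ± 5.11 at P4, then 49.4% ± 2.19 at P8, 16.1% ± 3.004 at P14 and finally 4.31% ± 0.591 at P21. *Slc1a3* held 29.3% ± 1.53 at P0, 25.2% ± 0.276 at P8, 51.1% ± 3.08 at P14 and 59.4% ± 0.363 at P21. *Slc1a2* held 3.70% ± 1.68 at P0 and 11.7% ± 0.831 at P21. The shares are of CPM, which do not correct for gene length, and they add to a fixed total, so the share of 1 gene depends on the others.

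**Figure D2:**
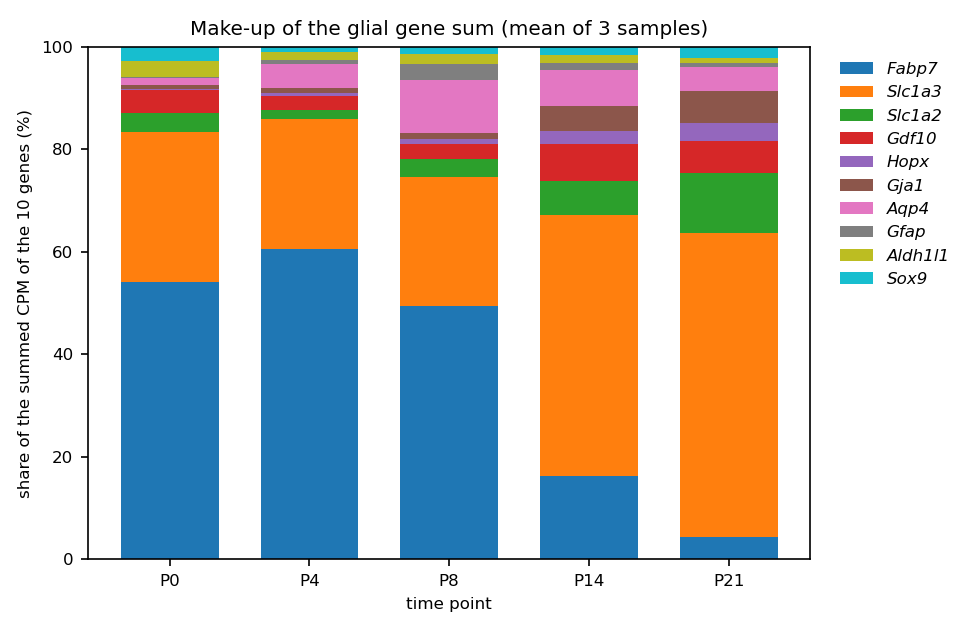
Share of each gene in the summed CPM of the 10 glial genes (y axis, percent) at each time point (x axis), as the mean of 3 samples per stacked bar. *Fabp7* takes 49.4% at P8 and 4.31% at P21, and *Slc1a3* 25.2% and 59.4%.

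Because these 2 genes carry most of the glial sum and parted after P8, the bases before their starts are shown, from the RefSeq promoter table on GRCm38.p6, 5′ to 3′ on the strand of the gene. The window of *Slc1a3* is chr15:8710808-8711057 (minus strand, 250 bases), and that of *Fabp7* is chr10:57784673-57784880 (plus strand, 208 bases), which leaves out the last 42 bases before the RefSeq start because GENCODE M21 places an exon there. Capitals mark a match to a STAT site, TTCNNNGAA, in *Slc1a3* and to a short NFI site, TTGGC, in *Fabp7*.
Slc1a3: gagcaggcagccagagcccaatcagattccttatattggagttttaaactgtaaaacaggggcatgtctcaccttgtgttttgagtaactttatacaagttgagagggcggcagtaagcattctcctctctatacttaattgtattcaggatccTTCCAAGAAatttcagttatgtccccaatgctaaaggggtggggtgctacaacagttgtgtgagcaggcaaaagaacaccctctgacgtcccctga
Fabp7: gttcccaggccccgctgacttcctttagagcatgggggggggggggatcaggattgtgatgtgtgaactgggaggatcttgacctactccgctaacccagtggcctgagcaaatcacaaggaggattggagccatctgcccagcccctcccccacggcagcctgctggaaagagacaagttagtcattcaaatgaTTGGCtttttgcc

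The match in *Slc1a3* begins 96 bases before the start, and that in *Fabp7* begins 55 bases before it. STAT and NFI proteins are transcription factors known for their part in astrocyte gene expression. Promoter windows of 300 bases, which include 50 bases after the start, were found for 8 of the 10 genes, with 9 windows in all, and none for *Aqp4* and *Sox9*. Both strands were searched. The STAT site was in 2 of these windows (*Slc1a3* and *Gfap*), and in 8.30% of the 32851 windows of all genes. The short NFI site was in 4 of the 9 (*Fabp7*, *Gdf10*, *Hopx* and *Slc1a2*), and in 46.7% of all windows. The full palindromic NFI site and a SOX site, ACAATG, were in none of the 9, and in 0.0365% and 12.6% of all windows. The RBPJ site TGGGAA was in 3 of the 9, and in 25.6% of all. The letters TATAAA were, on either strand, in 1 of them and in 13.6% of all. That match lies on the strand opposite to *Slc1a3*, so the sequence shown reads TTTATA there, from 161 bases before the start. These matches describe the letters only.

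*Gfap* encodes the intermediate filament protein that is used most widely to mark astrocytes. It lies on the minus strand of chromosome 11 (102887336 to 102900912). It was the lowest of the 10 per length in the mean at P0, P14 and P21, but the fourth highest at P8, with 69.1 ± 5.41 RPKM (SD, n = 3). At P0, P14 and P21 its samples overlapped those of the next higher gene. At P8 they overlapped those of *Hopx*, the next lower gene. In CPM, its samples held 7.88, 0.198 and 8.72 at P0, where the 0.198 is a single count, and 31.2, 111 and 8.91 at P4. They held 252, 301 and 289.5 at P8, 94.6, 88.1 and 104 at P14, and 4.34, 37.1 and 42.6 at P21. The P8 samples stood above all other samples, and those of P14 above those of P21. With the time point as a factor the change passed the test (adjusted p = 0.00281, edgeR).

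*Aqp4* encodes the water channel of astrocyte endfeet and lies on the minus strand of chromosome 18 (15389496 to 15410982). It had the same order of ages. Its values were 40.2, 67.9 and 111 CPM at P0, 631, 267 and 224 at P4, 1127, 693 and 1145.5 at P8, 565, 433 and 461 at P14, and 176, 152 and 272 at P21. No 2 neighbouring time points overlapped. From P0 to P4 it rose by 2.35 on the log2 scale (SE 0.41, adjusted p = 0.00595, edgeR), in a step in which 1.74% of all genes rose. The later steps of *Aqp4* and every step of *Gfap* between neighbouring time points did not pass in the main fit (adjusted p between 0.105 and 0.719, edgeR). Without the filter on low counts, *Gfap* passed from P0 to P4 (adjusted p = 0.0351, edgeR) and *Aqp4* from P4 to P8 (adjusted p = 0.0474, edgeR). From P4 to P8, *Gfap* also passed by limma-voom (adjusted p = 0.00840).

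As both genes were highest at P8, that day was also compared with the first and the last age, a choice made after the values had been seen. From P0 to P8, *Gfap* rose by 5.64 (SE 1.01, adjusted p = 0.00227, edgeR), *Aqp4* by 3.76 (SE 0.43) and *Hopx* by 3.09 (SE 0.43). *Slc1a2* and *Slc1a3* rose by 0.93 and 0.73, so that 5 of the 10 genes rose, against 5.61% of all genes tested. *Fabp7* gained 0.80 without passing (adjusted p = 0.0604, edgeR), but it passed without the filter on low counts (adjusted p = 0.0415, edgeR). It also passed by DESeq2 (adjusted p = 0.0223) and by limma-voom (adjusted p = 0.00711), each of which called 6 of the 10. The call of *Slc1a2* was lost without P0 replicate 1 or 3 or P8 replicate 1 or 3 (adjusted p between 0.0900 and 0.110, edgeR). That of *Slc1a3* was lost without P0 replicate 1 or 2, any P8 or P14 sample or P21 replicate 1 (adjusted p between 0.0506 and 0.169, edgeR) and with the RLE scaling (adjusted p = 0.0700, edgeR). From P8 to P21, *Fabp7* fell by 4.65 (SE 0.28), *Gfap* by 3.31 (SE 0.89, adjusted p = 0.0291, edgeR), *Aqp4* by 2.30 (SE 0.41) and *Aldh1l1* by 2.14 (SE 0.38), which made 4 of 10, against 4.61% of all genes. The fall of *Gfap* did not pass without any 1 of the P8 or P21 samples (adjusted p between 0.0586 and 0.101, edgeR). None of the 10 fell in the first interval by edgeR (0 at an unadjusted p below 0.05, 0 by DESeq2 and 0 by limma-voom), in which 1.74% of all genes fell. None rose in the second (1 at an unadjusted p below 0.05, 0 by DESeq2 and 0 by limma-voom), in which 3.64% of all genes rose. The median difference of the 10 was 0.86 from P0 to P8 and -0.34 from P8 to P21, and over all genes it was 0 and -0.082.

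**Figure D3:**
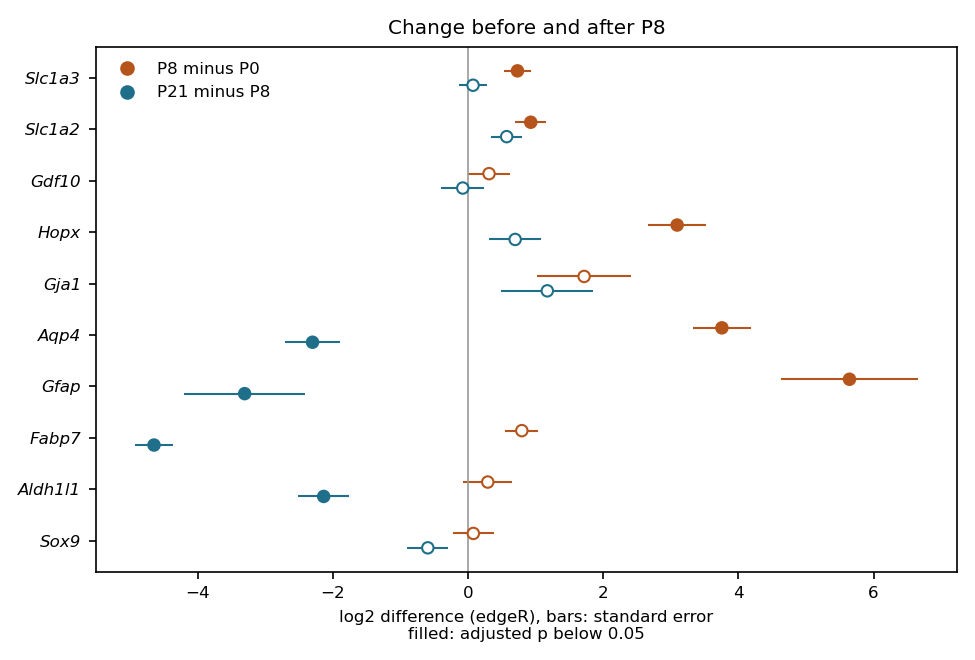
Difference of each gene in log2 units (x axis) from P0 to P8 (orange) and from P8 to P21 (blue), with bars of 1 standard error and filled points at an adjusted p below 0.05. *Gfap* (5.64) and *Aqp4* (3.76) lie far to the right before P8, and *Fabp7* (-4.65) lies farthest to the left after it.

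*Hopx* encodes a small homeodomain protein that does not bind DNA and marks Bergmann glia among other cells. It lies on chromosome 5 (77086988 to 77115121, minus strand). Its samples held 7.50, 6.55 and 17.2 CPM at P0, 44.2, 47.2 and 16.1 at P4, 111, 78.0 and 78.1 at P8, 179, 166 and 162 at P14, and 178, 139.6 and 116 at P21. P8 lay wholly above P4, and P14 wholly above P8, while P14 and P21 overlapped. Neither of these rises of *Hopx* passed the main test (adjusted p = 0.155 from P4 to P8 and 0.298 from P8 to P14, edgeR). The former passed by DESeq2 (adjusted p = 0.0471) and the latter by limma-voom (adjusted p = 0.0480). Its slope of 0.18 (log2 per day, SE 0.032, adjusted p = 4.26e-04, edgeR) was the steepest rise of the 10. The step from P0 to P4 was 1.78 (adjusted p = 0.0354, edgeR). With the replicate number as a block, a fit in which 1.41% of all genes rose, it did not pass (1.73, adjusted p = 0.0776, edgeR), nor did it by limma-voom (adjusted p = 0.185). The call was also lost without any 1 sample other than P0 replicate 3, P4 replicate 3 or P21 replicate 3 (1.51 and adjusted p = 0.110 without P0 replicate 2, edgeR).

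*Slc1a2* encodes GLT-1, the other main astrocyte glutamate transporter, on chromosome 2 (102658659 to 102790784, plus strand). Its samples held 156, 233 and 133 CPM at P0, 164, 119.9 and 102 at P4, 372, 273 and 347 at P8, 433, 451 and 461 at P14, and 475, 427 and 571 at P21. From P4 to P8 it rose by 1.36 on the log2 scale (SE 0.23, adjusted p = 0.00631, edgeR), as 1 of the 10, where 0.882% of all genes rose. DESeq2 and limma-voom each called 3 of the 10 in this step, adding *Hopx* and *Aqp4* by DESeq2 and *Aqp4* and *Gfap* by limma-voom. All P14 samples were above all P8 samples, but that step did not pass (0.44, adjusted p = 0.433, edgeR). It rose over all days with a slope of 0.088 (log2 per day, SE 0.015, adjusted p = 2.42e-04, edgeR).

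The ratio of the 2 glutamate transporters was compared within each library. In CPM, *Slc1a2* stood at 12.5% ± 5.12 (SD, n = 3) of *Slc1a3* at P0 and 6.85% ± 0.587 at P4, then 13.8% ± 0.931 at P8, 12.8% ± 0.741 at P14 and finally 19.7% ± 1.32 at P21. The 3 P4 samples (6.33% to 7.49%) were the lowest of all 15, and the 3 P21 samples (18.5% to 21.1%) the highest, while P8 and P14 overlapped. Across the 15 samples, the log2 ratio increased with postnatal day (Pearson r = 0.643, p = 0.0107, Spearman rho = 0.644, p = 0.0118, 2-sided permutation tests with 100000 resamples). It was the only relation with day tested in this way. Without P21 replicates 1 and 2, r was 0.479, so the relation was weaker without them. All 3 P21 samples lie equally far from the median day, and replicate 3 stayed in this fit. With any 1 sample left out, r lay between 0.575 and 0.812. Against log2(day + 1) in place of the day, r was 0.425 (permutation p = 0.114). Per length, the P21 ratio was 12.8% ± 0.855.

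*Gja1* encodes connexin 43, the gap junction protein that couples astrocytes, on chromosome 10 (56377330 to 56402513, plus strand). Its samples ranged from 11.2 to 52.7 CPM at P0, from 22.8 to 207 at P4, from 51.7 to 167 at P8, from 281 to 364 at P14 and from 159 to 366 at P21. P14 lay wholly above P8, but that step did not pass (adjusted p = 0.374, edgeR). The spread at P4 came from replicate 1, with 207 CPM against 40.4 and 22.8 in the other samples. Its slope was 0.15 (SE 0.034, adjusted p = 0.00361, edgeR), and 0.11 without the P0 samples (adjusted p = 0.0552, edgeR). *Gdf10*, which encodes a secreted factor of the TGF-beta superfamily and is a widely used Bergmann glia marker, had samples between 425 and 566 CPM at P14, above every sample of the other ages (106 to 346). It changed over the time points (adjusted p = 0.0236, edgeR), but this call was lost without P14 replicate 2 (adjusted p = 0.0931, edgeR) or P14 replicate 3 (adjusted p = 0.114, edgeR). Its steps from P8 to P14 and from P14 to P21 did not pass (adjusted p = 0.189 and 0.430, edgeR). Its slope was 0.037 (adjusted p = 0.183, edgeR).

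*Aldh1l1* encodes a folate enzyme that is used as a pan-astrocyte marker. It held 134 to 167 CPM at P0, 99.3 to 121 at P4, 165 to 218 at P8, 82.7 to 131 at P14 and 17.4 to 74.8 at P21. P4 lay wholly below P0 and P8, and P21 wholly below P14. None of these steps of *Aldh1l1* passed (adjusted p between 0.318 and 0.592, edgeR). Its slope was -0.078 (SE 0.023, adjusted p = 0.0178, edgeR), and it did not pass without P21 replicate 1 (adjusted p = 0.0509, edgeR) or P21 replicate 2 (adjusted p = 0.0719, edgeR). *Sox9* encodes a transcription factor of glial progenitors and astrocytes. It held 127 to 131 CPM at P0, 59.8 to 85.7 at P4, 82.4 to 179 at P8, 83.6 to 132 at P14 and 71.6 to 126 at P21, so P4 lay below P0 and the later ages overlapped. The step of *Sox9* from P0 to P4 did not pass (adjusted p = 0.256, edgeR). Its slope was -0.014 (adjusted p = 0.573, edgeR), and its means differed by no more than 1.77 times. The exons of *Slc1a2*, *Hopx* and *Aldh1l1* share 189, 412 and 499 bases with antisense genes, which had 83, 361 and 3 counts in all samples together, against 24127, 6786 and 9507 of the 3 glial genes. Whether the counting used strand is not given in the sources used here. *Aldh1l1* also shares 105 bases with *Gm45901* on its own strand.

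Per length, *Fabp7* and *Slc1a3* took the first 2 places at every age. At P0, P4, P8 and P14, *Fabp7* lay above *Slc1a3* without overlap of the samples. At P21, *Slc1a3* came first and *Fabp7* second (130.4 ± 47.8 RPKM, SD, n = 3), the latter overlapping *Hopx* (83.1 ± 18.03). The third place was held by *Gdf10* at P0 (47.8 ± 25.9), by *Aqp4* at P4 and P8 (63.3 ± 39.2 and 165 ± 44.0) and by *Hopx* at P14 and P21. *Aldh1l1* and *Sox9* overlapped with each other at P0, P8, P14 and P21. At P4, *Hopx* stood between them and overlapped both.

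Replicates of an age varied together in part. After the mean of each time point was taken off the log2 CPM, the Pearson r between 2 of the genes over the 15 samples had a median of 0.371 over the 45 pairs and was above 0 in 38. The highest were *Aqp4* with *Gja1* (r = 0.912) and *Aqp4* with *Slc1a3* (r = 0.843), and the lowest was *Aldh1l1* with *Sox9* (r = -0.489). These are descriptions over points that share library, depth and capture. At P21, replicate 3 held the highest value of its age for 8 of the 10 genes and the lowest PC sum (36886 CPM, against 45297 and 46640.0 in the others). At P4, replicate 3 held the lowest value for 9 of the 10 and also the lowest PC sum (10469 CPM, against 11720.0 and 17387). At P8, replicate 2 held the lowest value for 8 of the 10 and the highest PC sum (20349 CPM, against 17801 and 19457). Which part of this is the amount of glia captured was not tested.

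For each gene, the protein-coding gene with the most similar course over the 15 samples was found among 9300 genes with a mean of at least 10 CPM. For *Slc1a3* it was *Sparcl1* (r = 0.945), and for *Slc1a2* it was *Fam107a* (r = 0.975). For *Gdf10* it was *Elovl2* (r = 0.878), for *Hopx* *Timm17a* (r = 0.979), for *Aqp4* *Tril* (r = 0.939), for *Gfap* *Ly6d* (r = 0.905) and for *Gja1* *Nfic* (r = 0.929). For *Fabp7* it was *E130114P18Rik* (r = 0.981). These values describe points that share a library and its depth. For *Aldh1l1* it was *Actg1* (r = 0.955), and for *Sox9* it was *Spry2* (r = 0.877).

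A list of 30 other glial genes was tested beside these, among them transporters, pumps, receptors and secreted proteins of astrocytes. All 30 passed the filter. Of them, 22 rose with day, against 12.1% of all genes tested, and 2 fell, against 14.1%, with a median of 0.11 log2 units per day. The list was written with earlier results of these data known, so these shares are a description only. The steepest slopes were those of *Fgfr3* (slope 0.37, adjusted p = 0.00350, edgeR), *Itih3* (slope 0.32) and *Gpr37l1*. *Fgfr3* encodes a fibroblast growth factor receptor of astrocytes, and *Gpr37l1* an astrocyte receptor. *Fgfr3* had 0.0676 ± 0.117 CPM (SD, n = 3) at P0 and 31.7 ± 3.13 at P14. *Itih3* had 0.0676 ± 0.117 at P0 and 49.3 ± 11.5 at P21. In the P0 samples, 3 counts equal 0.64 to 0.681 CPM. Both slopes thus start below that level, and their size is uncertain. *Gpr37l1* went from 4.96 ± 7.91 CPM at P0 to 436 ± 112 at P8 and 1515 ± 73.9 at P14. The 2 that fell were *Slc6a11*, which encodes the GABA transporter GAT-3 (slope -0.15, adjusted p = 0.0409, edgeR), and *Cspg5*, a proteoglycan (slope -0.11, adjusted p = 6.67e-04, edgeR). The mean was highest at P14 or P21 for 27 of the 30, and at P8 for 1. From P8 to P21 none of the 30 fell by edgeR (2 at an unadjusted p below 0.05, 1 by DESeq2 and 1 by limma-voom), against 4.61% of all genes. *Sept4*, *Plpp3* and *Sdc4*, 3 of the 30, rose, against 3.64% of all genes. Summed, the list reached 3332 ± 316 CPM at P0 and 12282 ± 508 at P14, or 62.9% ± 6.76 of the PC sum at P0 and 36.3% ± 4.41 at P14.

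A list of 16 genes of radial glia and progenitors had 9 that fell with day, against 14.1% of all genes tested, and 0 that rose at an adjusted p below 0.05 (edgeR, with 0 rising at an unadjusted p below 0.05, 0 by DESeq2 and 0 by limma-voom), and a median slope of -0.11. This list, too, was written with earlier results of these data known. Its sum was 3428 ± 315 CPM (SD, n = 3) at P0, 3490.2 ± 641 at P8, 1779 ± 213 at P14 and 976 ± 189 at P21. *Id3*, an inhibitor of differentiation factors, went from 665 ± 118 CPM at P0 to 30.3 ± 12.1 at P21 (slope -0.19, adjusted p = 6.69e-06, edgeR), and *Nes*, which encodes the progenitor filament nestin, from 54.3 ± 18.04 to 1.30 ± 2.07 (slope -0.28, adjusted p = 1.35e-04, edgeR). *Hes5*, a Notch target, had 20.2 ± 4.45 CPM at P8 and no count in any P21 sample. A count of 0 does not exclude a low level, taken here as up to 3 expected counts per sample. The mean was highest at P0 for 8 of the 16, at P4 for 2 and at P8 for 6. From P0 to P8, *Nfia*, a factor that acts in gliogenesis, rose and *Vim*, which encodes the filament vimentin, fell, 1 of 16 in each direction, against 5.61% and 1.74% of all genes. From P8 to P21, 10 of the 16 fell, against 4.61% of all genes, among them *Tnc*, *Vim*, *Nfia* and *Nfib*, and none rose, against 3.64% (0 at an unadjusted p below 0.05, 0 by DESeq2 and 0 by limma-voom). Markers of dividing cells fell over the same ages, as given above, and their part in the fall of this list and of *Fabp7* was not tested.

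**Figure D4:**
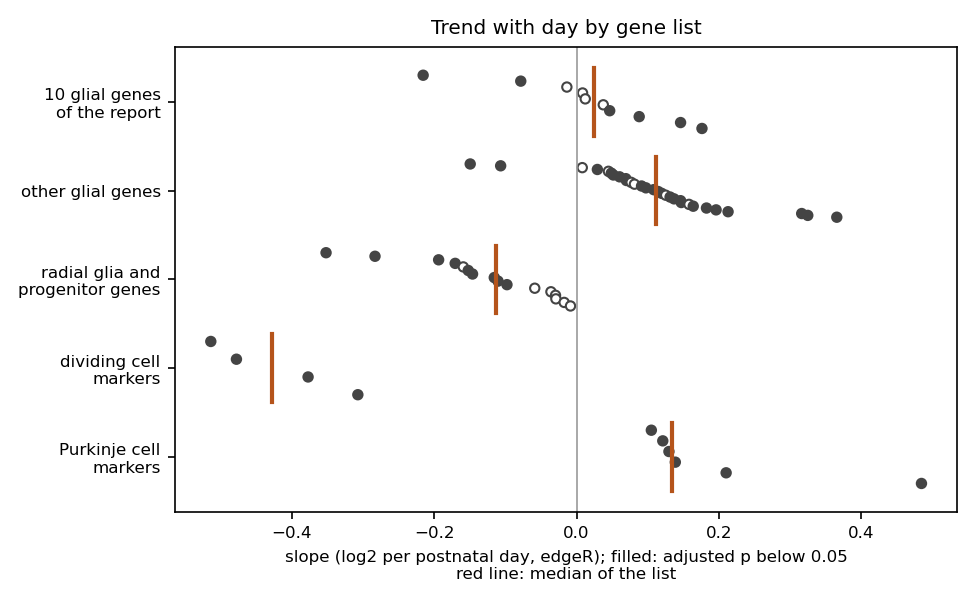
Slope of each gene in log2 units per postnatal day (x axis) for the 10 glial genes, 30 other glial genes, 16 radial glia and progenitor genes, 4 dividing cell markers and 6 PC markers, with filled points at an adjusted p below 0.05 and a line at the median of each list. The 10 glial genes spread on both sides of 0, from -0.22 (*Fabp7*) to 0.18 (*Hopx*), while the other glial genes lie mostly to the right and the radial glia genes to the left.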

How the data were processed

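RNA of 15 laser-captured PC samples was sequenced by the authors, who trimmed the reads with cutadapt 1.2.1, used GSNAP for alignment to GRCm38/mm10, dropped reads with several map positions, and obtained counts for Ensembl genes from HTSeq 0.5.3p9 (intersection-strict). The deposited values are whole-number counts without normalization, 1 library per sample. The gene annotation release and the strand setting of the counting are not given in the sources used here. Rows for reads outside genes (no feature, 16.7% to 29.8% of counted reads, highest at P0, and ambiguous, 1.16% to 1.57%) were left out.

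From these counts, CPM (TMM effective library sizes) and RPKM (summed exon length of GENCODE M21 on GRCm38, total counts on genes) were computed. The main test was edgeR 4.0.16 (R 4.3.3; filterByExpr by time point, TMM, quasi-likelihood F test) with all 15 samples, for postnatal day as a number, for the time point as a factor and for differences between time points, adjusted over 14293 genes. DESeq2 1.42.0, limma-voom (limma 3.58.1), RLE scaling, no filter, log2(day + 1), the replicate block, leaving out P0 and leaving out each sample were alternatives. The comparisons of P8 with P0 and with P21 were added after the data had been seen. The transporter ratio used log2 of CPM plus 1. The tests were tested on simulated data. The glial genes and gene lists were chosen with earlier results of these data known. Of the lists beside the 10 genes, the 3 steepest called genes in each direction are named. Further genes of a step are given as examples after their values were seen. Of the similar courses, the first of 3 is named for each gene, with some lower places as examples. Some members of lists and similar genes are not named. P-values measure the spread between samples, and the text draws no p over a list. Deviations from the age means had a mean r of -0.0038 between samples of equal number. The mean r for unequal numbers, 0.0019, largely follows from it, because the deviations of an age add to 0. Taken over all genes, no pairing by number was seen, but such a mean cannot exclude a pairing that touches only part of the genes. Python 3.11.15 with numpy 2.4.6, pandas 2.3.3, scipy 1.17.1 and matplotlib 3.10.9 was used for the rest.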

Additional observations from a re-analysis of the deposited data

How the results depend on the processing

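The counts of called glial genes moved with the samples used, the scale of the day and the tool. Without the P0 samples, 2 genes in place of 4 rose with day, and on log2(day + 1) 0 in place of 2 fell. In the replicate block, 1 gene in place of 2 rose from P0 to P4, with *Hopx* lost, and it changed no other call of the 10 genes. By limma-voom the count in this step stayed at 2, with *Hopx* lost (adjusted p = 0.185) and *Fabp7* added (adjusted p = 0.0384). The fit without the filter added *Gfap* in this step (adjusted p = 0.0351, edgeR). From P4 to P8, DESeq2 and limma-voom called 3 rising genes in place of 1, and the fit without the filter called 2. From P8 to P14, limma-voom called 1 rising and 3 falling genes in place of 0 and 1. From P0 to P8, DESeq2 and limma-voom each called 6 rising genes in place of 5, with *Fabp7* added. The correlation of the transporter ratio with day was 0.425 on log2(day + 1). With each sample left out in turn, 1 to 2 genes fell with day, 8 to 9 changed over the time points, 1 to 3 rose from P0 to P4, 1 to 2 from P4 to P8 and 0 to 1 from P8 to P14, and 1 to 2 fell from P14 to P21. Between 3 and 6 rose from P0 to P8, 3 to 4 fell from P8 to P21, and r of the transporter ratio lay between 0.575 and 0.812. Of the other glial list, 1 in place of 2 fell with day by limma-voom, on log2(day + 1), in the replicate block and in 8 of the 15 fits without a sample, and 7 in place of 3 rose from P8 to P21 by DESeq2 and by limma-voom. Among the 10 genes, directions turned only for values that had not passed the test. The slopes of *Aqp4* and *Gfap* were -0.093 and -0.14 without P0, and ranged from -0.021 to 0.049 and from -0.040 to 0.079 with single samples left out. Over the same fits, the log2 differences ranged from -0.52 to 0.28 (*Gdf10*) and from -0.26 to 1.70 (*Gja1*) for P4 minus P0, and from -0.16 to 0.16 (*Fabp7*) and from -0.025 to 1.94 (*Gja1*) for P8 minus P4. They ranged from -0.067 to 0.73 (*Gdf10*) and from -0.21 to 0.30 (*Sox9*) for P8 minus P0, and from -0.10 to 0.21 (*Slc1a3*) and from -0.31 to 0.049 (*Gdf10*) for P21 minus P8. Why the calls moved was not tested.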
